A study of Homo sapiens with 6 samples.

Results

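The miR-23a/27a/24-2 and miR-23b/27b/24-1 clusters are paralogous groups of microRNA (miRNA) hairpins on chromosomes 19 and 9. The miRNAs described here were chosen by name from among the mature products of these hairpins, and they number 10 of the 2588 mature miRNAs counted. They are hsa-miR-23a-3p, hsa-miR-23a-5p, hsa-miR-27a-3p, hsa-miR-27a-5p and hsa-miR-24-2-5p from chromosome 19, hsa-miR-23b-3p, hsa-miR-27b-3p, hsa-miR-27b-5p and hsa-miR-24-1-5p from chromosome 9, and hsa-miR-24-3p, whose sequence both clusters encode. All 10 had a count in each of the 6 libraries. A further chromosome 9 product, hsa-miR-23b-5p, is not among the 10. It had 6 to 60 counts and is used below only in ratios between arms or paralogs.

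Small RNA was sequenced from 2 human lines of wild-type genotype, the lung adenocarcinoma line A549 and the bronchial epithelial line BEAS-2B, which is immortalised but not tumour-derived. Each line was kept for 48 h in medium with 1% FBS, either without TGF-β1, a cytokine used here to model pulmonary fibrosis in epithelial cells, or with a low dose of 1 ng/mL or a high dose of 5 ng/mL. The comparisons asked how the miRNAs of treated cells differ from those of untreated cells of the same line. There was 1 library per group and 6 groups in all. No value therefore carries a replicate error, and no test of treatment was run. Every interval given is a 95% counting interval, which treats the scaling between libraries as known and covers neither differences between cultures nor repeated copies of 1 molecule.

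A primary transcript of each cluster folds into 3 hairpins, which the enzymes Drosha and Dicer cut into short duplexes. Each duplex has a 5p and a 3p arm, of which usually one is retained in the silencing complex and the other is degraded. A retained miRNA represses messenger RNAs that pair with its seed, and the miR-27 family is known for repression of the adipogenic factor PPARG, the miR-24 family for repression of cell-cycle genes. The chromosome 19 cluster is known to respond to TGF-β in several cell types.

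The sequences below are shown because the clusters are told apart by few bases. Mature sequences are from RefSeq on GRCh38.p14, and capitals mark the seed, bases 2 to 8 counted from the 5′ end.
miR-23a-3p: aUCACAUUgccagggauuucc
miR-23b-3p: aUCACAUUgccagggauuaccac
miR-27a-3p: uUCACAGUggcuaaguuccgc
miR-27b-3p: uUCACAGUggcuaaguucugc
miR-24-3p: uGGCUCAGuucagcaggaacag
miR-27a-5p: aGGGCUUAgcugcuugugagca
miR-27b-5p: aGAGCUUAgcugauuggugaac
miR-24-2-5p: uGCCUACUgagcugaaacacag
miR-24-1-5p: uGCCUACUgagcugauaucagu
miR-23a-5p: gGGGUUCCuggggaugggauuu
miR-3074-5p: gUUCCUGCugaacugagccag

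The abundant arms of the paralogs share a seed. miR-23a-3p and miR-23b-3p both carry UCACAUU and differ by 1 substitution, U19A, over the 21 positions they share. miR-27a-3p and miR-27b-3p both carry UCACAGU and differ by C19U. The 5p arms are less alike, with 8 of 22 positions different between miR-27a-5p and miR-27b-5p, among them G3A inside the seed, and 6 of 22 between miR-24-2-5p and miR-24-1-5p. Positions are counted from 1 at the 5′ end, with the base of the chromosome 19 miRNA first. How the authors counted reads that match both paralogs was not given in the sources used here, so the split of the miR-23 and miR-27 3p reads between paralogs is uncertain to that extent.

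The chromosome 19 hairpins lie within 373 bases on the minus strand, at chr19:13836287-13836659 of GRCh38.p14. GENCODE 29 places all 3 in an exon of AC020916.1, a gene of type antisense on the same strand. The chromosome 9 hairpins lie within 881 bases on the plus strand, at chr9:95085208-95086088. MIR23B and MIR27B are in an intron of the protein-coding gene C9orf3, and MIR24-1 overlaps an exon of 1 annotated C9orf3 transcript. A further hairpin, MIR3074, lies opposite MIR24-1 on the minus strand, and its product miR-3074-5p, printed last above, can pair with miR-24-3p over a run of 20 bases.

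Total counts ranged from 633318 to 900424 per library, and 902 to 1031 miRNAs were detected. hsa-miR-21-5p, the most abundant miRNA, took 47.6% to 57.2% of the counts in 5 libraries and 35.4% in the BEAS-2B control, whose scaling factor of 1.32 stood apart from the 0.829 to 1.02 of the others. Every BEAS-2B comparison and the comparison of the untreated lines use that library, and its part in them cannot be told apart from the treatment or the line. Of 6 epithelial miRNAs checked, all had a count in some library of each line. Their summed levels were 277 to 469 CPM (raw counts expressed per common depth) for A549 and 433 to 642 for BEAS-2B cells. However, miR-205-5p had at most 2 counts and miR-141-3p at most 8, and miR-200c-3p had 6 to 12 in the BEAS-2B libraries. The most counts were those of miR-200b-3p, 139 to 271 in A549 and 237 to 356 in BEAS-2B libraries. Of 10 miRNAs that mark blood, muscle or endothelial cells, 4 had a count in the A549 libraries and 6 in those of BEAS-2B, none above 9 counts apart from miR-126-3p, which had 1003 to 1280 counts in the A549 and 197 to 393 in the BEAS-2B libraries.

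The 10 miRNAs together took 9.69% of the counts in the A549 control, 8.27% at the low dose and 8.34% at the high dose. In BEAS-2B cells they took 10.7%, 7.45% and 6.56%, respectively. Scaling by the trimmed mean of M-values (TMM) brought the libraries to a common effective size of 749498, which is not the total of the scaled counts. The sum over the 10 miRNAs was then 79627, 74795 and 61493 normalised counts in A549 cells. In the BEAS-2B libraries it was 60647, 56642 and 49343. On this scale the sum was lower at each greater dose in both lines. hsa-miR-27a-3p and hsa-miR-27b-3p supplied most of it.

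The 3p arms made up the bulk of the reads of every hairpin. Over the 6 libraries, hsa-miR-27a-3p ranged from 23275 to 33216 normalised counts, hsa-miR-27b-3p from 13608 to 45790, and hsa-miR-24-3p from 6737 to 9844. hsa-miR-23a-3p ranged from 1043 to 2265 and hsa-miR-23b-3p from 1005 to 2241. Among the 5p arms only hsa-miR-27a-5p was abundant, at 255 to 1612 normalised counts. hsa-miR-27b-5p had 17 to 149 raw counts, hsa-miR-24-2-5p 23 to 59, hsa-miR-24-1-5p 10 to 24 and hsa-miR-23a-5p 3 to 8. Adapter joining favours some RNA ends over others, so levels of different miRNAs are amounts of reads rather than of molecules.

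**Figure D1:**
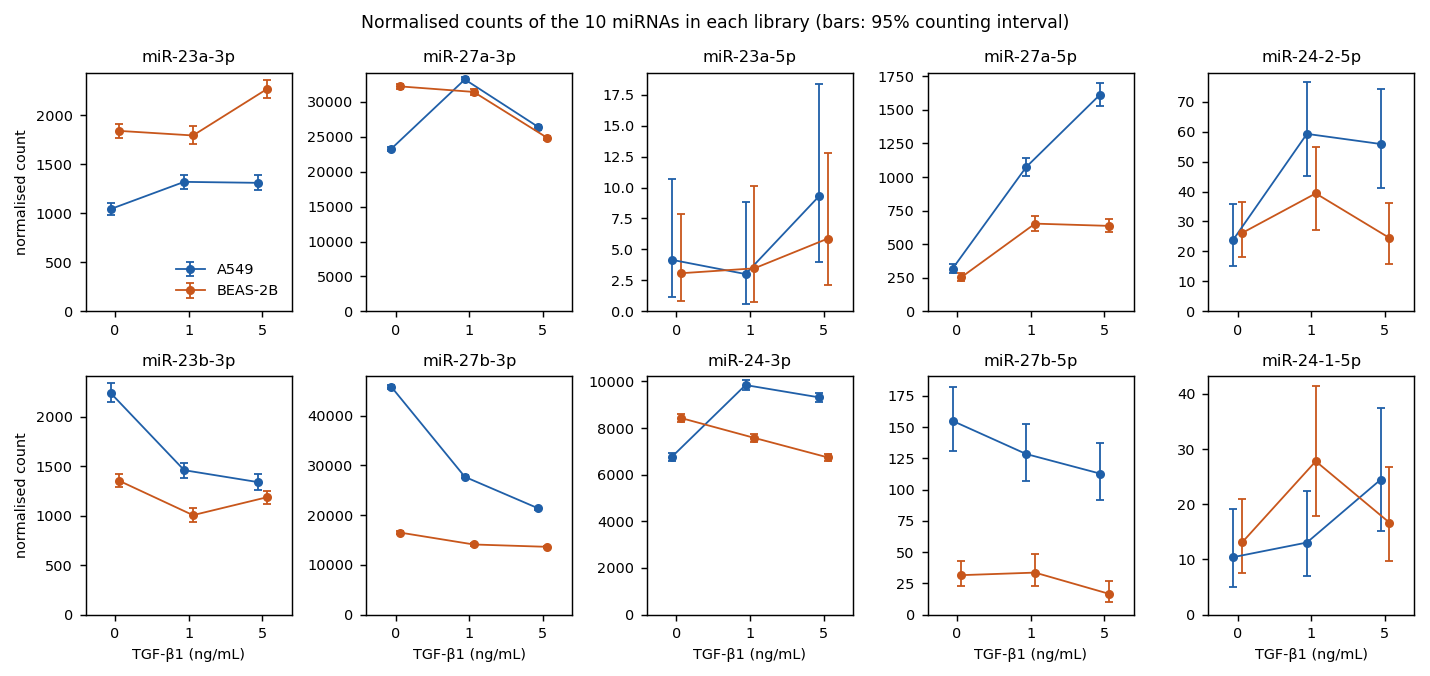
Normalised counts (y axes, linear from 0, one scale per panel) of the 10 miRNAs against the TGF-β1 dose in ng/mL, with A549 libraries in blue and BEAS-2B libraries in orange. Each point is 1 library and each bar its exact 95% Poisson counting interval; miR-27a-5p lies above its control at both doses in both lines, whereas miR-27b-3p lies below.

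The study's criteria were applied to each comparison, a fold change of at least 1.4 and a normalised data value (ND), the log2 of the normalised count plus 1, of at least 8 in the higher library. An ND of 8 is a normalised count of 255. The 5 abundant 3p arms and hsa-miR-27a-5p met the ND criterion in every comparison, and the other 4 miRNAs met it in none. In A549 cells at the high dose, 3 of the 6 passed the fold criterion, 1 higher and 2 lower, where 27% of the 141 miRNAs with a sufficient ND were higher and 26.2% lower. At the low dose, 5 of the 6 passed, 3 higher and 2 lower, against 27% higher and 21.9% lower among 137 miRNAs. In BEAS-2B cells 1 of the 6 passed at each dose, hsa-miR-27a-5p, which was higher, against 20.0% higher and 16.0% lower at the high dose and 15.8% higher and 13.3% lower at the low dose. Passing the criteria was thus common among all miRNAs, and nothing about the clusters is read from these counts of 6.

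For the 6 miRNAs with a sufficient ND, median ratios were set beside those of all such miRNAs. In A549 cells the median log2 ratio was 0.26 at the high dose and 0.43 at the low dose, beside -0.03 and -0.11 over all. The BEAS-2B medians were -0.23 and -0.10, beside -0.08 and -0.04. Both doses of a line were compared with the same control library, so the doses are not independent of each other.

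These calls depended on the scaling. When libraries were scaled by their total counts, the median over all miRNAs that met the ND criterion shifted, as a log2 ratio, by 0.16 in A549 cells at the high dose, by -0.14 at the low dose, and in BEAS-2B cells by -0.41 at the high dose and -0.43 at the low dose. The split over all miRNAs went from 38 higher and 37 lower to 51 and 26 in A549 cells at the high dose, and from 25 higher and 20 lower to 11 and 68 in BEAS-2B cells. At the low dose it went from 37 higher and 30 lower to 23 and 39 in A549 cells, and from 19 higher and 16 lower to 8 and 62 in BEAS-2B cells. Total-count scaling with miR-21-5p taken out moved the BEAS-2B split at the high dose the other way, to 33 higher and 9 lower, with a median shift of 0.18. Ratios between 2 miRNAs of the same library, which are used below for paralogs and arms, do not contain the scaling.

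hsa-miR-27a-5p, the less abundant arm of the miR-27a hairpin, was the member with the greatest log2 ratio among the 6 that met the ND criterion, in both lines and at both doses. It had 318 normalised counts in the A549 control, 1074 at the low dose and 1612 at the high dose. The BEAS-2B libraries had 255, 653 and 636, respectively. Both treated libraries were above the control in each line, and the A549 library at the high dose was the highest of the 6.

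In A549 cells hsa-miR-27a-5p was 5.05-fold higher at the high dose, a log2 ratio of 2.34 (95% counting interval 2.16 to 2.52), and 3.37-fold higher at the low dose, a log2 ratio of 1.75 (1.57 to 1.94). It ranked 4 from the highest of 141 miRNAs at the high dose. In BEAS-2B cells it was 2.49-fold higher at the high dose, a log2 ratio of 1.32 (1.13 to 1.52), and 2.56-fold higher at the low dose, a log2 ratio of 1.36 (1.16 to 1.56), and ranked 8 of 125 and 7 of 120. Over all scalings and pseudocounts the log2 ratio was at least 1.61 in A549 cells and at least 0.77 in BEAS-2B cells. Its ND in the BEAS-2B control lay just under 8, so the BEAS-2B calls were lost when both libraries had to meet the ND criterion.

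hsa-miR-27b-3p, the abundant arm of the chromosome 9 miR-27 hairpin, was lower in treated A549 cells. It had 45790 normalised counts in the A549 control, 27677 at the low dose and 21325 at the high dose, so that each greater dose gave the lower value. The BEAS-2B libraries had 16473, 14082 and 13608. In A549 cells it was 2.15-fold lower at the high dose, a log2 ratio of -1.10 (-1.13 to -1.08), and 1.65-fold lower at the low dose. The BEAS-2B log2 ratios were -0.28 at the high dose and -0.23 at the low dose, short of the fold criterion. Total-count scaling took them to -0.69 and -0.65, past it, whereas total counts without miR-21-5p gave -0.09 and -0.18.

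hsa-miR-23b-3p, from the neighbouring hairpin, went the same way in A549 cells. It had 2241 normalised counts in the control, 1460 at the low dose and 1339 at the high dose, and in BEAS-2B cells 1352, 1005 and 1185. The A549 log2 ratio was -0.74 (-0.85 to -0.64) at the high dose and -0.62 (-0.72 to -0.52) at the low dose, both past the criteria. The BEAS-2B value was -0.19 at the high dose and -0.43 at the low dose, neither past them. Other scalings took the high-dose value to between -0.60 with total counts, past the criteria, and -0.0080 with total counts without miR-21-5p, and the low-dose value past the criteria with DESeq2 size factors at -0.50 and with total counts at -0.85. The A549 calls of hsa-miR-27b-3p and hsa-miR-23b-3p held under all 5 other scalings.

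The chromosome 19 counterparts did not show this decrease in A549 cells. hsa-miR-27a-3p had 23275 normalised counts in the A549 control, 33216 at the low dose and 26389 at the high dose, and 32221, 31428 and 24848 in BEAS-2B cells. Its log2 ratio in A549 cells was 0.51 (0.49 to 0.54) at the low dose, just past the fold criterion, and 0.18 at the high dose. The BEAS-2B ratio was -0.37 at the high dose and -0.04 at the low dose. The A549 level was thus highest at the low dose. The BEAS-2B ratio at the high dose passed the criteria, as a lower level, with DESeq2 size factors at -0.49 and with total-count scaling at -0.79, and was -0.19 with total counts without miR-21-5p.

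hsa-miR-23a-3p had 1043, 1320 and 1310 normalised counts in A549 cells without TGF-β1 and at the low and the high dose and 1840, 1793 and 2265 in BEAS-2B cells. Its log2 ratio at the high dose was 0.33 (0.21 to 0.45) for A549 and 0.30 (0.22 to 0.38) for BEAS-2B cells, and at the low dose 0.34 and -0.04. None passed the fold criterion. The direction in BEAS-2B cells at the high dose turned to -0.11 under total-count scaling and to -0.05 without scaling, and was 0.48 with total counts without miR-21-5p, and total-count scaling took the A549 value at the high dose to 0.49, past the criterion.

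hsa-miR-24-3p cannot be assigned to either cluster. It had 6766, 9844 and 9315 normalised counts in A549 cells and 8432, 7576 and 6737 in BEAS-2B cells. The log2 ratio in A549 cells was 0.54 (0.50 to 0.59) at the low dose, past the criteria, and 0.46 (0.41 to 0.51) at the high dose, and in BEAS-2B cells -0.15 and -0.32. Both treated A549 libraries were above their control and both treated BEAS-2B libraries below theirs. The A549 calls of hsa-miR-24-3p and hsa-miR-27a-3p at the low dose were lost with DESeq2 size factors, with total-count scaling and with TMM within the line. Total-count scaling took the A549 ratio of hsa-miR-24-3p at the high dose to 0.62, past the criteria. It took the BEAS-2B ratios to -0.73 and -0.58 at the high and the low dose, also past the fold criterion, whereas total counts without miR-21-5p gave -0.14 and -0.11.

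The 4 rarer 5p arms had wide intervals. In A549 cells the log2 ratio of hsa-miR-24-2-5p was 1.19 (0.48 to 2.01) at the high dose and 1.27 (0.59 to 2.07) at the low dose, from 23, 59 and 48 counts without TGF-β1 and at the low and the high dose. In BEAS-2B cells it had 34, 34 and 25 counts, and both intervals held 0. hsa-miR-27b-5p had 149, 128 and 97 counts for A549 and 41, 29 and 17 for BEAS-2B cells. Its log2 ratio at the high dose was -0.45 (-0.84 to -0.08) and -0.88 (-1.83 to -0.07), respectively. At the low dose it was -0.27 (-0.62 to 0.08) for A549 and 0.09 (-0.65 to 0.81) for BEAS-2B cells. hsa-miR-24-1-5p had 10, 13 and 21 counts for A549 and 17, 24 and 17 for BEAS-2B cells. Its log2 ratio in A549 cells was 1.16 (0.08 to 2.48) at the high dose and 0.30 (-0.98 to 1.68) at the low dose, and in BEAS-2B cells 0.33 (-0.71 to 1.41) and 1.03 (0.13 to 2.08). For hsa-miR-23a-5p, at 3 to 8 counts, all 4 intervals held 0, and no change was detectable at this depth.

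**Figure D2:**
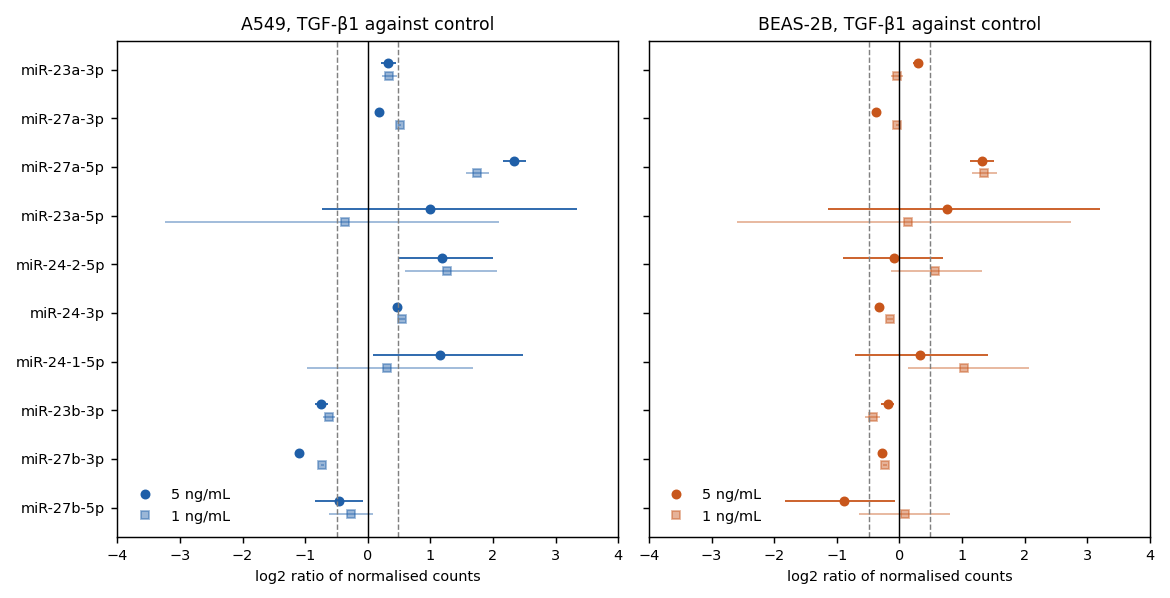
Log2 ratio of normalised counts, treated over control (x axes), for the 10 miRNAs (rows) in A549 (left) and BEAS-2B cells (right), with circles for 5 ng/mL, squares for 1 ng/mL and lines for 95% counting intervals, which are narrower than the symbol for the most abundant miRNAs. Dashed lines mark 1.4-fold; miR-27a-5p is right of it in all 4 comparisons, and miR-27b-3p and miR-23b-3p are left of it in A549 cells.

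The untreated lines differed in the balance between the clusters. The A549 control had 2.78-fold more hsa-miR-27b-3p than the BEAS-2B control, a log2 ratio of 1.47 (1.45 to 1.50), and 1.66-fold more hsa-miR-23b-3p, a log2 ratio of 0.73 (0.64 to 0.82). It had 1.76-fold less hsa-miR-23a-3p, a log2 ratio of -0.82 (-0.93 to -0.71). The higher levels of the 2 chromosome 9 miRNAs and the lower level of the chromosome 19 miRNA passed the criteria, 3 of 6, against 40.7% higher and 28.1% lower among 135 miRNAs. The call of hsa-miR-23b-3p was lost under total-count scaling, at 0.19, and without scaling, at 0.29. Total-count scaling moved the median of all miRNAs by -0.54 and the split from 55 higher and 38 lower to 34 and 70. hsa-miR-27a-3p, at -0.47, was just short of the fold criterion. It passed as lower with DESeq2 size factors (-0.52), total counts (-1.01), total counts without miR-21-5p (-0.54) and no scaling (-0.91). hsa-miR-24-3p, at -0.32, passed as lower with total counts (-0.86) and no scaling (-0.75). hsa-miR-27b-5p was 4.80-fold higher in the A549 control, from 149 against 41 counts, but did not reach the ND criterion.

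The share of each paralog within a library gives the same balance without scaling. In the A549 control, hsa-miR-27a-3p made up 33.7% (exact interval 33.3 to 34.1) of the reads of both miR-27 3p arms, and 54.5% at the low dose and 55.3% (54.8 to 55.8) at the high dose. Its BEAS-2B shares were 66.2%, 69.1% and 64.6%. The chromosome 9 paralog was thus the more abundant in the A549 control alone, and the chromosome 19 paralog in the other 5 libraries.

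hsa-miR-23a-3p showed a similar order against hsa-miR-23b-3p. Its share in A549 cells was 31.7% (30.1 to 33.4), 47.5% (45.6 to 49.4) and 49.5% (47.4 to 51.5) without TGF-β1 and at the low and the high dose. Its BEAS-2B shares were 57.7%, 64.1% and 65.6% (64.0 to 67.2). The intervals of the treated A549 libraries overlapped each other and lay between those of the A549 control and the BEAS-2B control.

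As a change of the log2 ratio from the control, miR-27a-3p to miR-27b-3p moved by 1.28 (1.25 to 1.32) at the high dose and 1.24 (1.21 to 1.27) at the low dose in A549 cells, and by -0.10 (-0.14 to -0.06) and 0.19 (0.15 to 0.23) in BEAS-2B cells. The ratio of miR-23a-3p to miR-23b-3p moved by 1.07 (0.91 to 1.24) and 0.96 (0.80 to 1.11) in A549 cells and by 0.49 (0.35 to 0.62) and 0.39 (0.24 to 0.54) in BEAS-2B cells. In A549 cells both 3p ratios thus moved toward chromosome 19 by a similar amount at both doses, whereas in BEAS-2B cells the miR-23 ratio moved and the miR-27 ratio changed sign between doses. Summed over the 3p arms of miR-23 and miR-27, the chromosome 19 share was 33.6%, 54.2% and 55.0% for A549 and 65.6%, 68.8% and 64.7% for BEAS-2B cells. Between the untreated lines, the miR-27 3p ratio was 3.85-fold and the miR-23 3p ratio 2.92-fold lower in A549 cells.

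Among the 5p arms, hsa-miR-27a-5p made up 67.3%, 89.3% and 93.5% of the miR-27 5p reads in A549 cells without TGF-β1 and at the low and the high dose, and 89.0%, 95.1% and 97.4% in BEAS-2B cells. The share was higher at each greater dose in both lines. The log2 ratio to hsa-miR-27b-5p moved by 2.79 (2.37 to 3.22) at the high dose for A549 and by 2.19 (1.37 to 3.17) for BEAS-2B cells. These paralogs differ at 8 positions and were easier to tell apart than the 3p arms. For miR-23 the chromosome 19 arm was not the more abundant in any library. hsa-miR-23a-5p made up 6.25%, 8.82% and 17.4% of the miR-23 5p reads in A549 cells, in the same order of doses. The BEAS-2B shares were 13.8%, 23.1% and 50%. They rest on 3 to 8 counts of hsa-miR-23a-5p and 6 to 60 of hsa-miR-23b-5p. The 5p arms of miR-24, the only reads that separate MIR24-2 from MIR24-1, gave hsa-miR-24-2-5p a share of 69.7%, 81.9% and 69.6% for A549 and 66.7%, 58.6% and 59.5% for BEAS-2B cells. All 4 changes of that ratio had intervals that held 0, for example 0.03 (-1.49 to 1.41) at the high dose in A549 cells. hsa-miR-3074-3p, from the hairpin opposite MIR24-1, can pair with hsa-miR-24-1-5p over a run of 19 bases and had 19 to 60 counts. Whether the counting used the strand was not given, so reads of hsa-miR-24-1-5p counted for hsa-miR-3074-3p cannot be told apart. The miR-24 shares are uncertain to that extent.

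**Figure D3:**
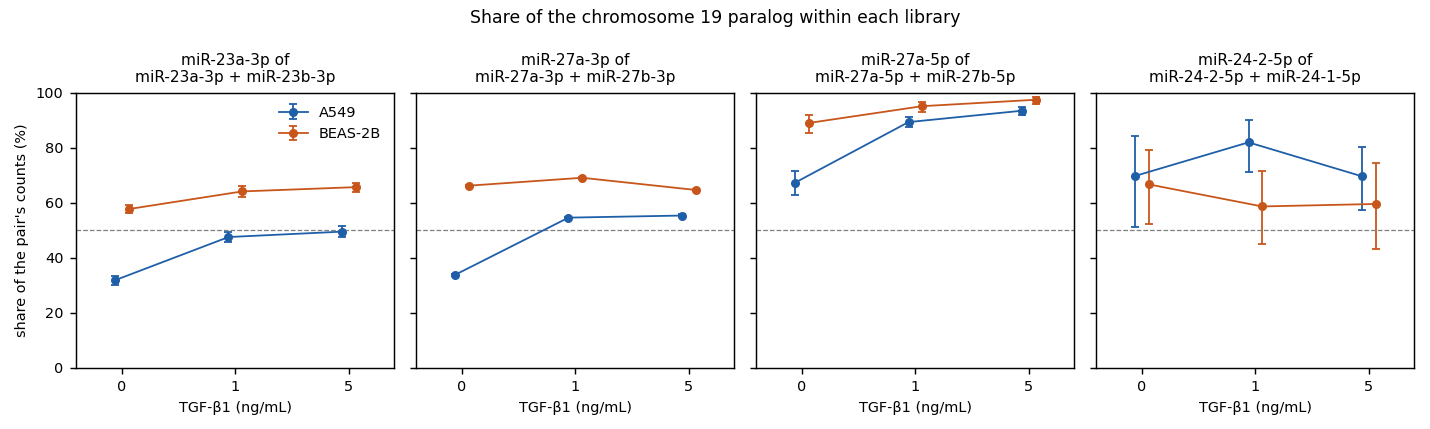
Share in percent of the chromosome 19 paralog among the reads of both paralogs (y axis) against the TGF-β1 dose in ng/mL, for 4 pairs of miRNAs, with A549 in blue and BEAS-2B in orange. Points are single libraries and bars exact 95% binomial intervals; the dashed line marks equal shares, above which the miR-27a-3p share lies in every library but the A549 control.

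The miR-27a hairpin also showed a change between its own arms. hsa-miR-27a-5p made up 1.35% (1.20 to 1.51) of the reads of both arms in the A549 control, 3.13% (2.95 to 3.32) at the low dose and 5.76% (5.47 to 6.06) at the high dose. In BEAS-2B cells it made up 0.784% (0.702 to 0.873), 2.04% (1.87 to 2.21) and 2.50% (2.31 to 2.69). No intervals of the same line overlapped, and the share was higher at each greater dose in both lines. The 3p arm remained the more abundant by at least 16.4-fold.

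The log2 ratio of the 5p to the 3p arm of miR-27a moved by 2.15 (1.98 to 2.34) at the high dose and 1.24 (1.06 to 1.43) at the low dose in A549 cells, and by 1.69 (1.50 to 1.89) and 1.39 (1.20 to 1.60) in BEAS-2B cells. Changes of 1.4-fold or more were common: they were found in 64.8% of 88 hairpins in A549 cells at the high dose, in 35.2% of 88 at the low dose, and in BEAS-2B cells in 42.7% of 89 at the high dose and 35.3% of 85 at the low dose. miR-27a ranked 2 of 88, 4 of 88, 2 of 89 and 2 of 85 from the highest, respectively. These hairpins had at least 10 counts of each arm in either library of the comparison. Among the 34, 34, 30 and 31 hairpins with at least 50 counts of each arm in both libraries, miR-27a ranked 1 from the highest in all 4 comparisons. These ranks are signed, so they do not count decreases of greater size.

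Other hairpins changed by more than miR-27a in some comparisons. At the high dose in A549 cells, the 5 greatest changes were those of miR-494 at 2.85, miR-27a at 2.15, miR-340 at -1.94, miR-369 at 1.87 and miR-126 at -1.80. In BEAS-2B cells they were those of miR-29a at 1.93, miR-27a at 1.69, miR-193a at -1.51, miR-335 at 1.47 and miR-1304 at -1.47. miR-27a was the only hairpin among these 5 in both lines at the high dose. At the low dose miR-29c, chosen after its values were seen and with under 50 counts of an arm, changed by more than miR-27a in both lines, at 1.73 against 1.24 in A549 cells and 1.60 against 1.39 in BEAS-2B cells. Others did so in A549 cells alone, and were likewise named after their values were seen. Of these, miR-148b at 1.66 and miR-194 at 1.26 moved up. Greater moves down were those of miR-324 at -1.74, miR-148a at -1.65, miR-409 at -1.42 and miR-625 at -1.38. The change of miR-29c at the high dose was 0.72 for A549 and -0.61 for BEAS-2B.

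The arms of the other member hairpins moved less or were sparsely counted. The miR-27b arm ratio moved by 0.65 (0.26 to 1.02) at the high dose in A549 cells and by -0.60 (-1.55 to 0.20) in BEAS-2B cells. Its low-dose changes were 0.46 (0.10 to 0.81) and 0.33 (-0.42 to 1.04), respectively. In A549 cells the miR-27b ratio thus also moved toward the 5p arm at both doses, by less than that of miR-27a. With the 5p reads of both loci added together, the miR-24 arm ratio moved at the high dose by 0.74 (0.14 to 1.41) for A549 cells. For BEAS-2B cells it moved by 0.40 (-0.23 to 1.01). At the low dose the values were 0.51 (-0.08 to 1.18) and 0.93 (0.36 to 1.50). The miR-23b ratio, which uses hsa-miR-23b-5p at 6 to 60 counts, moved by 0.26 (-0.39 to 0.87) and -1.35 (-3.10 to -0.19) at the high dose. At the low dose in BEAS-2B cells it was -0.22 (-1.53 to 0.81), and its sign turned, to 0.20, with a pseudocount of 10. The miR-23a ratio rested on at most 8 counts of the 5p arm, and all 4 of its intervals held 0.

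**Figure D4:**
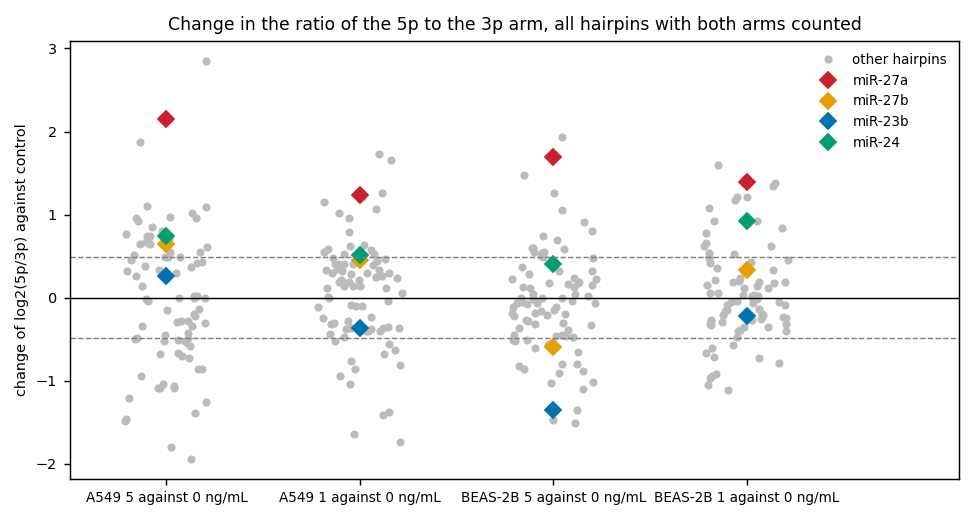
Change of the log2 ratio of the 5p to the 3p arm against the control of the same line (y axis) in each of the 4 comparisons (x axis), with 1 point per hairpin that had at least 10 counts of each arm in either library, jittered sideways. Coloured diamonds are miR-27a, miR-27b, miR-23b and miR-24, grey points are other hairpins and dashed lines mark 1.4-fold; the red diamond of miR-27a lies near the top of each column, at 2.15, 1.24, 1.69 and 1.39.

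Because the paralogs share seeds, the sum over a seed family differs from its members. The miR-27 sum was 69065, 60893 and 47714 normalised counts in A549 cells and 48695, 45510 and 38455 in BEAS-2B cells, log2 ratios at the high dose of -0.53 and -0.34. In A549 cells the decrease of hsa-miR-27b-3p was thus larger than the difference in hsa-miR-27a-3p. The miR-23 sum, which includes hsa-miR-23c at 2 to 7 counts, had log2 ratios of -0.31 for A549 and 0.11 for BEAS-2B cells at the high dose. All these sums are on the TMM scale and depend on the scaling as their members do. Under total-count scaling hsa-miR-23a-3p (-0.11) and hsa-miR-23b-3p (-0.60) were both lower in BEAS-2B cells at the high dose. The direction of the miR-23 sum there thus depends on the scaling. hsa-miR-24-3p was the only member of its seed family among the 2281 miRNAs with a sequence.

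Within each cluster, ratios between the 3p arms moved in some comparisons and not in others. Against hsa-miR-27a-3p, hsa-miR-23a-3p moved by 0.15 (0.02 to 0.28) at the high dose for A549 and by 0.67 (0.59 to 0.76) for BEAS-2B cells on the log2 scale. Against hsa-miR-27b-3p, hsa-miR-23b-3p moved by 0.36 (0.25 to 0.47) and 0.09 (-0.03 to 0.20). The low-dose values were -0.17 (-0.29 to -0.05) in A549 and -0.00075 (-0.10 to 0.09) in BEAS-2B cells for the miR-23a-3p ratio. For the miR-23b-3p ratio they were 0.11 (0.0084 to 0.21) and -0.20 (-0.32 to -0.08). hsa-miR-24-3p moved against hsa-miR-27a-3p by 0.28 (0.23 to 0.33) and 0.05 (0.0019 to 0.10) at the high dose and by 0.03 (-0.02 to 0.08) and -0.12 (-0.17 to -0.07) at the low dose. At the high dose these shifts were smaller than that of either 3p paralog ratio in A549 cells, but the miR-23a-3p shift in BEAS-2B cells was larger than both BEAS-2B paralog shifts.

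The miRNAs with the most similar patterns were sought among the 156 others that reached the ND threshold in any library, by the root mean square (RMS) difference of ND centred on its mean over the 6 libraries. The nearest to hsa-miR-27a-5p were hsa-miR-455-5p at an RMS difference of 0.33, hsa-miR-1246 at 0.39, hsa-miR-455-3p at 0.54, hsa-miR-411-5p at 0.56 and hsa-miR-125a-5p at 0.57. Its own hairpin partner, hsa-miR-27a-3p, ranked 47 at 0.93. The nearest to hsa-miR-27b-3p were hsa-miR-450a-5p at 0.074, hsa-miR-148b-3p at 0.22, hsa-miR-450b-5p and hsa-miR-30d-5p at 0.27, and its cluster neighbour hsa-miR-23b-3p at 0.31. hsa-miR-27a-3p ranked 64 in that list, at 0.71. The nearest to hsa-miR-27a-3p were hsa-miR-30e-3p, hsa-miR-24-3p and hsa-miR-3074-5p, each at 0.17, followed by hsa-miR-28-3p and hsa-miR-25-3p at 0.19. These likenesses describe 6 libraries in which doses share a control and the lines differ.

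The nearest to hsa-miR-24-3p was hsa-miR-3074-5p, at 0.052, ahead of hsa-miR-30e-3p at 0.16, hsa-miR-27a-3p at 0.17, hsa-miR-320a at 0.20 and hsa-miR-424-3p at 0.21. Of the reads of hsa-miR-3074-5p and hsa-miR-24-3p together, hsa-miR-3074-5p made up 9.62%, 9.41% and 9.65% in A549 cells without TGF-β1 and at the low and the high dose and 9.26%, 9.75% and 10.3% in BEAS-2B cells. The share thus kept between 9.26% and 10.3% while hsa-miR-24-3p ranged over 6502 to 10962 counts. The 2 sequences lie on opposite strands of the same locus, and whether the counting used the strand was not given in the sources used here. Reads of hsa-miR-24-3p counted for hsa-miR-3074-5p therefore cannot be told apart from hsa-miR-3074-5p itself.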

How the data were processed

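The files hold whole-number counts of reads per mature miRNA, raw as deposited by the authors, for 2588 miRNAs in each of 6 libraries prepared with the NEBNext Multiplex Small RNA kit. The submitters' processing notes name Bowtie2 and bedtools. The genome build, the miRNA annotation and the handling of strand, mismatches and multiple matches were not given in the sources used here. Groups were taken from the sample labels.

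Counts were scaled with TMM in edgeR 4.0.16 (R 4.3.3) across the 6 libraries and brought to a mean effective size of 749498, with a pseudocount of 1 on the log2 scale. Intervals at 95% were exact Clopper-Pearson intervals of the conditional binomial share. For a ratio of ratios, the interval was the exact conditional interval of the odds ratio. A count of 0 allows up to 3 counts, or 3.33 to 4.74 CPM. The criteria (ND of at least 8, fold change of at least 1.4) follow the study, which did not state the normalisation or which library must reach the ND threshold. No p-value was computed. Alternatives were DESeq2 1.42.0 size factors, total counts with and without miR-21-5p, TMM within each line, no scaling, and other thresholds and pseudocounts. Arm pairs needed at least 10 counts of each arm in either library compared.

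The members and lists were chosen with earlier results of these data known. The rule for named miRNAs took all 10 members, miR-23b-5p, miR-23c, both arms of miR-3074, miR-21-5p, the 5 nearest miRNAs to each of 4 members, and the 5 hairpins with the greatest arm changes at the high dose (5 ng/mL) in each line. Hairpin positions and sequences were from RefSeq GRCh38.p14, and containing genes from GENCODE 29. Python 3.11.15, numpy 2.4.6, pandas 2.3.3, scipy 1.17.1 and matplotlib 3.10.9 were used. The TMM log2 ratios, calls and intervals at 5 ng/mL against control were checked on simulated libraries with known changes. In these the most abundant miRNAs were kept unchanged, among them miR-21-5p, miR-27a-3p and miR-27b-3p. That check therefore does not cover a change in the share of miR-21-5p such as the one between the BEAS-2B libraries. The interval for a ratio of ratios was checked on simulated counts. Arm ranks, likenesses, seed-family sums and the alternative scalings were not checked in this way.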

Additional observations from a re-analysis of the deposited data

Results flagged for a closer look

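Some differences had opposite directions in the 2 lines, with both treated libraries of a line on the same side of its control, and none of these differences was tested. The log2 ratio of hsa-miR-24-3p at the high dose was 0.46 for A549 and -0.32 for BEAS-2B cells, a difference of 0.785. That of hsa-miR-27a-3p was 0.18 for A549 and -0.37 for BEAS-2B cells, a difference of 0.556, although its BEAS-2B value at the low dose was only -0.04 and turned to 0.0058 under total-count scaling without miR-21-5p. The log2 ratio of miR-24-2-5p to miR-24-1-5p moved by 0.03 for A549 and by -0.43 for BEAS-2B cells, a difference of 0.459, from 10 to 59 counts of each miRNA, and all 4 intervals held 0.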

How the results depend on the processing

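No paired analysis was possible because each group had 1 library and the labels carry no replicate numbers, and for the same reason no replicate could be left out. All 79 recomputed changes of within-library ratios moved by less than their counting intervals. These ratios do not contain the scaling, so the other scalings could not move them. The 79 therefore cannot be set against the values that follow. Of the recomputed log2 ratios, 252 of 340 moved by less than their counting intervals. Of the recomputed counts of members past the criteria, 47 of 64 stayed within 1.5-fold of the reported count. The remaining counts were as follows. With total-count scaling, 5 and 3 members passed in A549 cells at the high and the low dose in place of 3 and 5, while the BEAS-2B counts became 5 and 4 in place of 1 and 1. With no scaling, 5 and 6 passed in BEAS-2B cells. With DESeq2 size factors, 3 passed in A549 cells at the low dose and 2 at each dose in BEAS-2B cells. With TMM within each line, 3 passed in A549 cells at the low dose. Without the ND threshold, 6 passed in A549 cells at the high dose and 3 at each dose in BEAS-2B cells, and with the ND criterion on both libraries 0 passed in BEAS-2B cells at either dose. With a fold change of at least 2, 1 passed in A549 cells at the low dose and 1 between the untreated lines. The cause was not tested.

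Over all miRNAs, total-count scaling and no scaling took the 45 past the criteria in BEAS-2B cells at the high dose to 79 and 74, and the 35 at the low dose to 70 and 88. A fold change of at least 2 left 42 of 75 and 21 of 67 in the A549 comparisons, 15 and 13 in the BEAS-2B comparisons and 55 of 93 between the lines, and the ND criterion on both libraries left 41, 44, 29, 24 and 58, respectively. An ND of at least 9 left 26 and 23 in the BEAS-2B comparisons, and without the ND threshold 861, 785, 766, 752 and 920 of 2588 passed. DESeq2 size factors gave 29 higher and 38 lower in A549 cells at the low dose, and 20 and 33 at the high dose and 16 and 22 at the low dose in BEAS-2B cells. No scaling gave 31 and 52 in A549 cells at the high dose, 12 and 62 at the high and 6 and 82 at the low dose in BEAS-2B cells, and 37 and 64 between the untreated lines. Depth limits the 4 rarer 5p arms, which had 3 to 149 counts.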
